A study of Mus musculus with 13 samples.

Results

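miR-204 and miR-211 are a pair of paralogous microRNAs (miRNAs) that lie in introns of genes for TRPM cation channels, mir-204 in Trpm3 and mir-211 in Trpm1. Both arms of both hairpins, mmu-mir-204 and mmu-mir-211, were looked for in 13 small RNA libraries of mouse brain, and 3 of the 1514 pairs of a hairpin and a mature miRNA listed in the deposited counts belonged to them: miR-204-5p, miR-204-3p and miR-211-5p. The fourth arm, miR-211-3p, was listed in no library. The family was selected on the measured hippocampal values of miR-204-5p, which was among the miRNAs with the largest TgR to FVB/N ratio there. The hippocampal values and the regional difference within TgR mice, which contains the same libraries, are therefore given as a description without a test. The regional difference within FVB/N mice was tested, but its hippocampal libraries also entered the choice.

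The libraries came from prefrontal cortex (PFC; 3 FVB/N and 4 TgR mice) and hippocampus (3 FVB/N and 3 TgR mice). FVB/N is the inbred parent strain and served as wild type. TgR mice carry, on the same FVB/N background, a transgene for human AChE-R, the soluble stress-associated splice variant of acetylcholinesterase, which is expressed constitutively from a minimal cytomegalovirus promoter-enhancer. The study asked which small RNAs changed in the brains of these mice, a model studied for stereotypic behavior (SB), and the TgR mice used for RNA were not separated by their behavior. The labels name no drug treatment, and the age of the mice at RNA extraction was not given in the sources used here. The labels give the PFC libraries as separate animals and number the hippocampal ones, and they do not say whether both regions of a mouse were sequenced.

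A miRNA is cut from a hairpin precursor into a 5p and a 3p strand, one of which usually accumulates, and it recognizes its target mRNAs mainly through the seed near its 5′ end. Mature miR-204-5p and miR-211-5p share this seed and hence most predicted targets. miR-204 is known as an abundant miRNA of the retinal pigment epithelium and of the choroid plexus, the epithelium in the brain ventricles that secretes cerebrospinal fluid, while miR-211 is known from melanocytes, where TRPM1 is expressed.

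The mature strands are shown because the counts of the family rest on telling its 5p arms apart. The sequences are those of RefSeq on GRCm38.p6, written 5′ to 3′, with the seed (bases 2 to 8) in capitals.
miR-204-5p: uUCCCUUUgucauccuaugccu
miR-211-5p: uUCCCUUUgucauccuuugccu
miR-204-3p: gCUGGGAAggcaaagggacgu
miR-211-3p: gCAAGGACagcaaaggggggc
Both 5p strands have 22 bases, and they differ at 1 base, A17U (miR-204-5p first, counted from the 5′ end). The 3p strands have 21 bases and differ at 7 positions, U3A, G4A, A8C, G9A, A18G, C19G and U21C, and 3 of these lie in the seed. Reads that end before base 17 could not be assigned to 1 of the 5p strands by sequence, and how the alignment treated them was not tested. Besides the family, RefSeq lists the 5p seed in miR-7670-3p, which had 5 counts over the 13 libraries. The seed of miR-204-3p also occurs in miR-7684-5p, which is not among the mature miRNAs of the counts.

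The precursors are shown to place both strands, which are in capitals.
mir-204: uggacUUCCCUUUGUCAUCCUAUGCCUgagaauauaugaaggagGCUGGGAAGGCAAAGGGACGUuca
mir-211: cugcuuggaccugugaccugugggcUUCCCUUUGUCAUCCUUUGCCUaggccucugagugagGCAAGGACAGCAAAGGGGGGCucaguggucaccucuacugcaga
The mir-204 hairpin of 68 bases lies at chr19:22750605-22750672 on the plus strand (GRCm38.p6), within intron 6 of 25 of Trpm3, on the strand of that gene. That intron has 33462 bases, and the hairpin was intronic in all 18 Trpm3 transcripts that span it and exonic in 0. The mir-211 hairpin of 106 bases lies at chr7:64205806-64205911, also on the plus strand, in intron 6 of 26 of Trpm1, which has 3682 bases. It was intronic in all 12 Trpm1 transcripts that span it. Trpm3 holds no other annotated miRNA, and Trpm1 holds Mir6416, which had no counts in these libraries.

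Total counts were 8769851 to 18385985 per library, with group medians of 13619784 to 17229478. Total RNA input was 300 ng for each library and RNA integrity numbers were 8.6 to 9.3. The neuronal miRNA list (miR-9, miR-124 and miR-128) held 162646 to 269624 CPM in the 13 libraries. Most of this was miR-128-3p (84581 to 183115 CPM) and miR-9-5p (57689 to 74154 CPM), so the sum says little about miR-124. CPM are counts per 1000000 counts of a library whose total was scaled with the trimmed mean of M values (TMM). In TgR PFC replicate 4, 4 pairs of muscle miRNAs (miR-1a, miR-133a and miR-206) stood more than 1 log2 unit above every other library. They were named after their values were seen.

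miR-204-5p was the main product of the family in every library, with 4976 to 58321 counts. In the PFC its levels were 658, 441 and 513 CPM in the FVB/N mice and 499, 531, 522 and 589 CPM in the TgR mice. In the hippocampus they were 1033, 661 and 764 CPM in FVB/N mice and 3117, 984 and 2733 CPM in TgR mice. TgR hippocampal replicates 1 and 3 stood above all other libraries, whereas replicate 2 lay below the highest FVB/N hippocampal library. The group means were 2278 ± 1137 CPM in TgR hippocampus (SD, n = 3), 819 ± 192 in FVB/N hippocampus (n = 3), 537 ± 111 in FVB/N PFC (n = 3) and 535 ± 38.5 in TgR PFC (n = 4). The last 2 groups in this order differed by less than their spread. By its mean, miR-204-5p ranked 116 of 1309 listed pairs in FVB/N PFC, 117 of 1332 in TgR PFC, 90 of 1314 in FVB/N hippocampus and 59 of 1325 in TgR hippocampus.

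**Figure D1:**
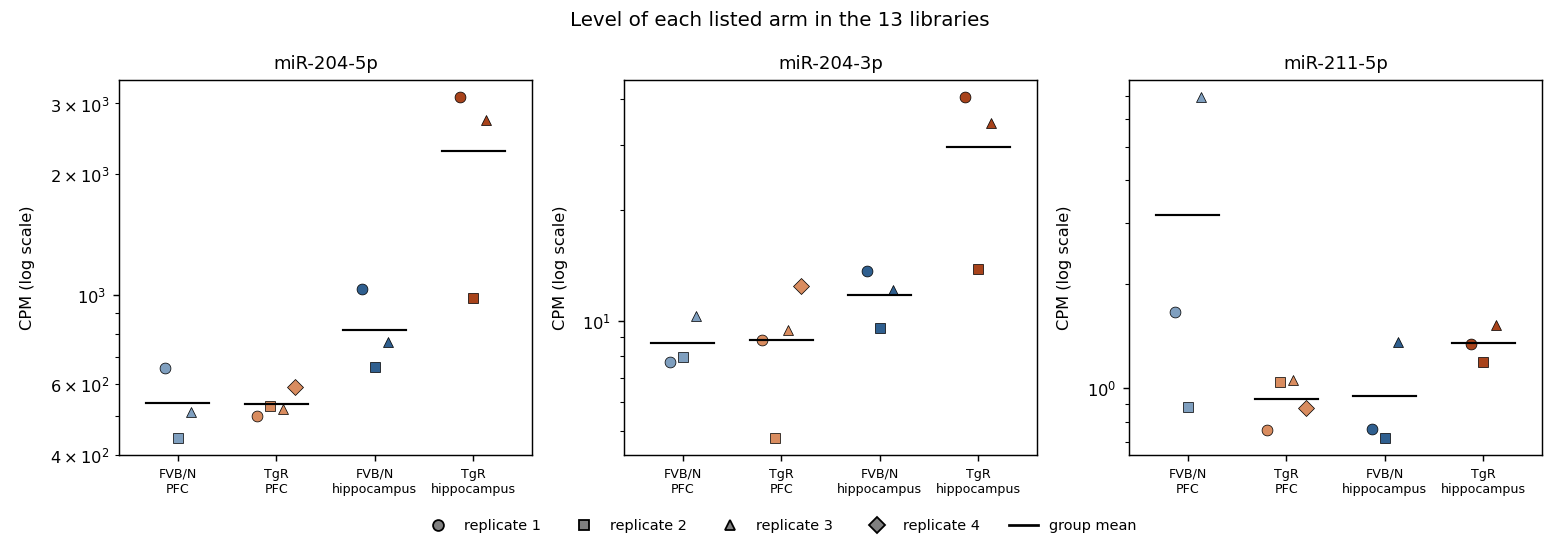
Level in CPM (log axis, its own range in each panel) of miR-204-5p, miR-204-3p and miR-211-5p in the 13 libraries, 1 symbol per library by replicate number, with the group mean as a bar. For both miR-204 arms, TgR hippocampus replicates 1 and 3 stand above all other libraries, and for miR-211-5p the highest library is FVB/N PFC replicate 3 at 6.97 CPM.

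The passenger strand miR-204-3p was present at much lower levels with the same order of groups at the top. It measured 7.73, 7.97 and 10.3 CPM in FVB/N PFC, and 8.86, 4.80, 9.44 and 12.4 CPM in TgR PFC. In the hippocampus it measured 13.6, 9.53 and 12.1 CPM in FVB/N mice and 40.5, 13.8 and 34.4 CPM in TgR mice. All 3 TgR hippocampal libraries were above the FVB/N ones, but replicate 2 exceeded the highest of them only by 13.8 against 13.6 CPM. Group means were 29.6 ± 14.0 CPM in TgR hippocampus, 11.8 ± 2.06 in FVB/N hippocampus, 8.87 ± 3.13 in TgR PFC and 8.67 ± 1.42 in FVB/N PFC, of which the PFC groups differed by less than their spread.

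miR-211-5p was close to the detection limit. It had 28, 10 and 98 counts in FVB/N PFC, 11, 10, 16 and 14 in TgR PFC, 10, 12 and 17 in FVB/N hippocampus and 25, 18 and 29 in TgR hippocampus. These counts correspond to 1.66, 0.886 and 6.97 CPM in FVB/N PFC and to 0.719 to 1.53 CPM in the hippocampal libraries, with 0.756 to 1.06 CPM in TgR PFC. FVB/N PFC replicate 3 was apart from the other 12 libraries. Its level had an exact Poisson interval of 5.66 to 8.49 CPM, against 1.11 to 2.41 CPM for the next highest library, FVB/N PFC replicate 1. These intervals, like all intervals on counts here, are at 95% and cover counting error only, since the reads carry no molecular identifiers. Of 751 pairs with enough counts over the 13 libraries, miR-211-5p was the only 1 that stood more than 1 log2 unit above every other library in FVB/N PFC replicate 3, a feature chosen after its value was seen. The group means were 3.17 ± 3.31 CPM in FVB/N PFC, 1.35 ± 0.169 in TgR hippocampus, 0.949 ± 0.36 in FVB/N hippocampus and 0.933 ± 0.144 in TgR PFC. The first of these rests on 1 library, and the last 2 groups did not differ beyond their spread.

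No count of miR-211-3p was found among 192365146 counts. A count of 0 allows up to 3 counts, that is 0.163 to 0.342 CPM of the unscaled total, depending on the library, so the strand was not detectable at this depth.

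The spread of miR-204-5p between animals differed among the groups. Its coefficient of variation was 49.9% in TgR hippocampus, where the highest library was 3.17-fold above the lowest, and 32 of the 751 pairs (4.26%) had a larger one. In TgR PFC it was 7.19%, and 683 of 751 pairs (90.9%) had a larger one. The FVB/N groups were between, at 20.6% in PFC and 23.4% in hippocampus, with a larger one in 55.7% and 29.8% of the 751 pairs. The median over these pairs also differed, at 13.7% in TgR hippocampus, 17.5% in FVB/N hippocampus, 20.1% in TgR PFC and 23.0% in FVB/N PFC. miR-204-3p shared the wide spread in TgR hippocampus, at 47.3%, but not the narrow one in TgR PFC, at 35.2%. For miR-211-5p the coefficient was 104% in FVB/N PFC, exceeded in 0.399% of the 751 pairs, and 12.5% to 38.0% in the other groups.

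Hippocampal TgR levels of miR-204-5p were 2.81-fold the FVB/N levels in the fit, a log2 difference of 1.49 (SE 0.39). This value ranked 10 of 726 pairs from the highest, and it belongs to the contrast that chose the family. In 2 of 3 TgR mice miR-204-5p lay above all FVB/N mice. The log2 difference was 1.35 (SE 0.37) for miR-204-3p, whose groups did not overlap, as was the case upward for 11.4% of the 726 pairs. For miR-211-5p it was 0.55 (SE 0.30), with 1 of 3 TgR mice above all FVB/N mice. The median over all 726 pairs was −0.0031. Whether more cells with the miRNA or more of it per cell were sampled cannot be told apart in such tissue libraries, here and in the comparisons that follow.

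Within TgR mice, hippocampus and PFC did not overlap for any of the 3 arms, and the hippocampus was higher. Such a separation was found for 10.3% of 738 pairs. The log2 differences were 2.11 (SE 0.32) for miR-204-5p, 1.75 (SE 0.39) for miR-204-3p and 0.57 (SE 0.24) for miR-211-5p, with a median of 0.029 over all pairs. The value of miR-204-5p is a 4.32-fold difference, at rank 12 of 738. Again, these libraries include those that chose the family, so no test is given. For miR-211-5p, a part of misassigned miR-204-5p reads in this difference was not tested either.

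The PFC comparison asked whether the transgene went with another level of the family in the region that did not enter its choice. It gave no difference in miR-204-5p between TgR and FVB/N mice past the test. Its log2 difference was −0.033 (SE 0.16, 95% interval −0.40 to 0.34), with an adjusted p of 1.00 in the quasi-likelihood test of edgeR, adjusted over 730 pairs after Benjamini and Hochberg. The value of miR-204-3p was 0.0056 (SE 0.29, interval −0.66 to 0.67, adjusted p = 1.00 in the same edgeR test). None of the intervals of the miR-204 arms reached 1 log2 unit, although they do not show that the levels were equal. In the same test miR-211-5p gave −1.79 (SE 0.63, interval −3.23 to −0.35), an unadjusted edgeR p of 0.02 and an adjusted p of 1.00. It was the lowest of the 730 log2 values, but only 2 of 4 TgR mice were below all FVB/N mice, and without FVB/N PFC replicate 3 the value was −0.53. Thus 0 of 3 members passed edgeR, 1 of 3 had an unadjusted p under 0.05 and 0 of 3 passed DESeq2. Among all pairs, 1 of 730 (0.137%) passed, miR-383-5p, named after its value was seen, and 2.6% had an unadjusted p under 0.05. The genotypes overlapped for all 3 members, where 3.7% of all pairs had every TgR library above and 1.37% every TgR library below the FVB/N ones.

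In FVB/N mice, the comparison of hippocampus with PFC gave the regional levels without the transgene. All 3 hippocampal libraries were above the PFC libraries for miR-204-5p, though the lowest hippocampal level of 661 CPM was next to the highest PFC level of 658 CPM. This separation occurred upward in 13.2% of 718 pairs and downward in 9.75%. The log2 difference was 0.62 (SE 0.22, 95% interval 0.13 to 1.11), which did not pass after adjustment (adjusted p = 0.19 in edgeR, with an unadjusted edgeR p of 0.018). For miR-204-3p the value was 0.45 (SE 0.25, interval −0.094 to 1.00, adjusted p = 0.41 in edgeR), and the groups overlapped. For miR-211-5p it was −1.73 (SE 0.66, interval −3.20 to −0.27, adjusted p = 0.23 in edgeR), and −0.45 without FVB/N PFC replicate 3. In all, 0 of 3 members passed edgeR, 2 of 3 had an unadjusted p under 0.05 and 0 of 3 passed DESeq2, while 24 of 718 pairs (3.34%) passed edgeR and 15.2% had an unadjusted p under 0.05. Without the filter on low counts miR-211-5p passed (edgeR adjusted p = 0.00022), and the 24 pairs became 56. With 1 library left out they became 4 (without FVB/N PFC replicate 2) to 51 (without FVB/N PFC replicate 3). This comparison shares its FVB/N hippocampal libraries with the hippocampal comparison of genotypes, which chose the family. The p-values of the members here are therefore not independent of that choice, and no conclusion is drawn from them. Its FVB/N PFC libraries are shared with the PFC comparison, so the values of the comparisons are not independent of each other.

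**Figure D2:**
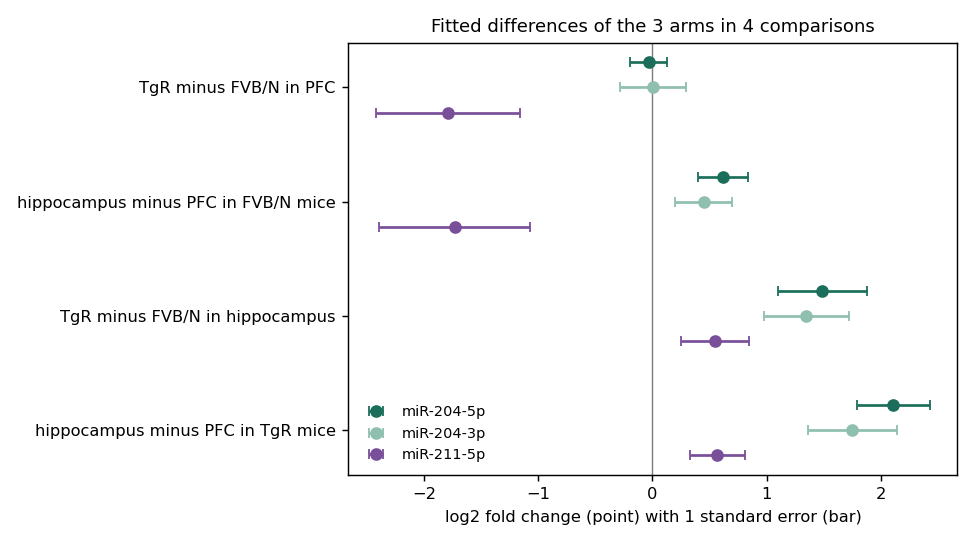
Fitted log2 fold change (points) with 1 standard error (bars) of the 3 arms in the 4 comparisons, the first named group minus the second. Both miR-204 arms lie near 0 for TgR minus FVB/N in PFC (−0.033 and 0.0056) and furthest above 0 for hippocampus minus PFC in TgR mice (2.11 and 1.75), and both low points of miR-211-5p rest on FVB/N PFC replicate 3.

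The ratio of 2 miRNAs within a library does not depend on the scaling, and the strands of mir-204 come from 1 precursor. There were 1.18, 1.81 and 2.01 counts of miR-204-3p per 100 counts of miR-204-5p in FVB/N PFC, and 1.78, 0.904, 1.81 and 2.10 in TgR PFC. In the hippocampus there were 1.32, 1.44 and 1.59 in FVB/N mice and 1.30, 1.40 and 1.26 in TgR mice. The means were 1.66 ± 0.436 (SD, n = 3), 1.65 ± 0.517 (n = 4), 1.45 ± 0.135 (n = 3) and 1.32 ± 0.074 (n = 3), in this order. The ratio thus varied most between PFC libraries and stayed between 1.26 and 1.59 in all hippocampal libraries, including those with the highest miR-204 levels. In the PFC the genotypes differed by −0.0163 (TgR minus FVB/N, two-sided exact permutation p = 0.91, where the smallest p that 4 against 3 mice allow is 0.057).

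The share of miR-211 in the 5p family was small. Misassigned reads of the near-identical miR-204-5p could add to its counts, and this was not tested. Per 100 counts of miR-204-5p there were 0.253, 0.201 and 1.36 counts of miR-211-5p in FVB/N PFC and 0.152, 0.197, 0.202 and 0.149 in TgR PFC. The hippocampal values were 0.074, 0.109 and 0.179 in FVB/N mice and 0.0429, 0.121 and 0.056 in TgR mice. FVB/N PFC replicate 3, at 1.36 (exact interval 1.10 to 1.66), was again apart from the others, which lay between 0.0429 and 0.253. The means were 0.604 ± 0.654 in FVB/N PFC, 0.175 ± 0.0285 in TgR PFC, 0.12 ± 0.0533 in FVB/N hippocampus and 0.0734 ± 0.0421 in TgR hippocampus. The PFC genotypes differed by −0.429 (two-sided exact permutation p = 0.11), and by −0.0523 without FVB/N PFC replicate 3.

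**Figure D3:**
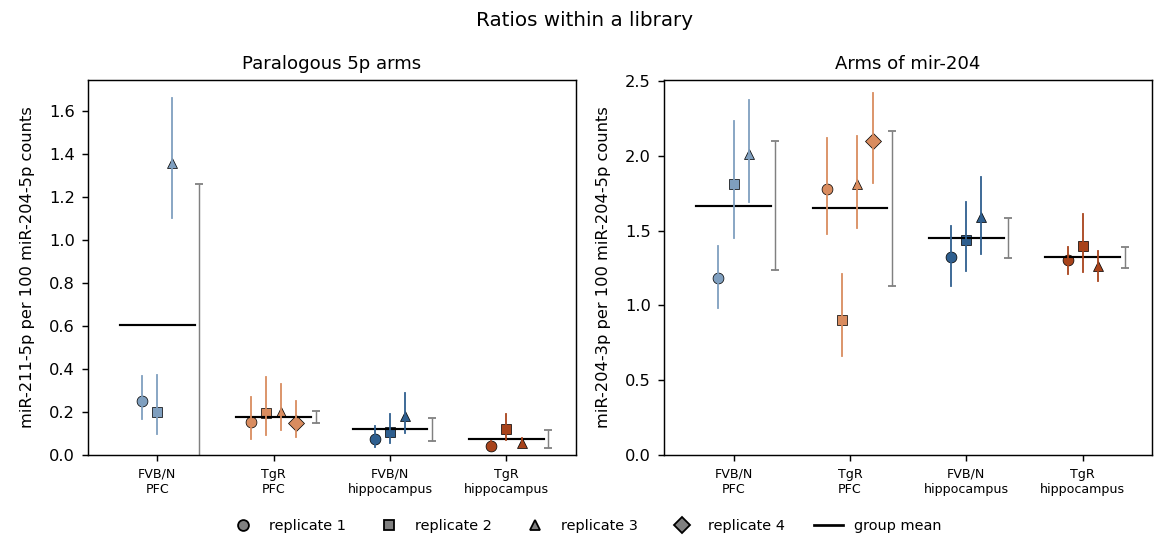
Counts of miR-211-5p (left) and of miR-204-3p (right) per 100 counts of miR-204-5p in each library, with exact 95% intervals for counting error (colored lines), group means (black bars) and SD (grey bars, the lower end of the first cut at 0). On the left, FVB/N PFC replicate 3 at 1.36 stands apart, and on the right the hippocampal libraries lie between 1.26 and 1.59.

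miRNAs known from other cell types were set beside miR-204, since a dissected region can hold different amounts of ventricular tissue. The miRNAs of Htr2c introns, a cluster in the gene of the serotonin receptor that is abundant in choroid plexus, summed to 119 to 130 CPM in FVB/N PFC, 86.9 to 325 in TgR PFC, 175 to 193 in FVB/N hippocampus and 257 to 1995 in TgR hippocampus. Within TgR hippocampus the sums were 1995, 257 and 1448 CPM, so that replicate 2, which had the lowest miR-204-5p, also had the lowest sum. Its leading member miR-1298-5p measured 1715, 190 and 1233 CPM there, against 148, 122 and 149 CPM in FVB/N hippocampus. In the TgR PFC, the highest sum (325 CPM) was in replicate 4, which had the highest levels of both miR-204 arms in that group. Not all PFC libraries followed this order: TgR replicate 2 had the lowest sum (86.9 CPM) with the second highest miR-204-5p of its group (531 CPM), and in FVB/N PFC the highest sum (130 CPM) was in replicate 3, with 513 CPM of miR-204-5p, against 124 CPM in replicate 1, with 658 CPM. Of the 6 hairpins of this list 5 had counts, and mir-1911 had none.

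miR-34b, miR-34c and miR-449, miRNAs of cells with motile cilia such as the ependyma that lines the ventricles, summed to 83.3 to 91.6 CPM in FVB/N PFC, 64.9 to 99.7 in TgR PFC, 91.6 to 157 in FVB/N hippocampus and 416 to 858 in TgR hippocampus. In TgR hippocampus the sums were 858, 416 and 825 CPM, all above the other libraries, and replicate 2 was again the lowest. miR-34c-5p accounted for most of this, with 734, 347 and 688 CPM in TgR hippocampus and 119, 137 and 74.6 CPM in FVB/N hippocampus. Not all groups had the same order for the ciliary sum and miR-204-5p. In FVB/N hippocampus the sums were 142, 157 and 91.6 CPM, so replicate 2 had the highest sum with the lowest miR-204-5p (661 CPM). In TgR PFC, replicate 2 had the lowest sum (64.9 CPM) with the second highest miR-204-5p (531 CPM).

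**Figure D4:**
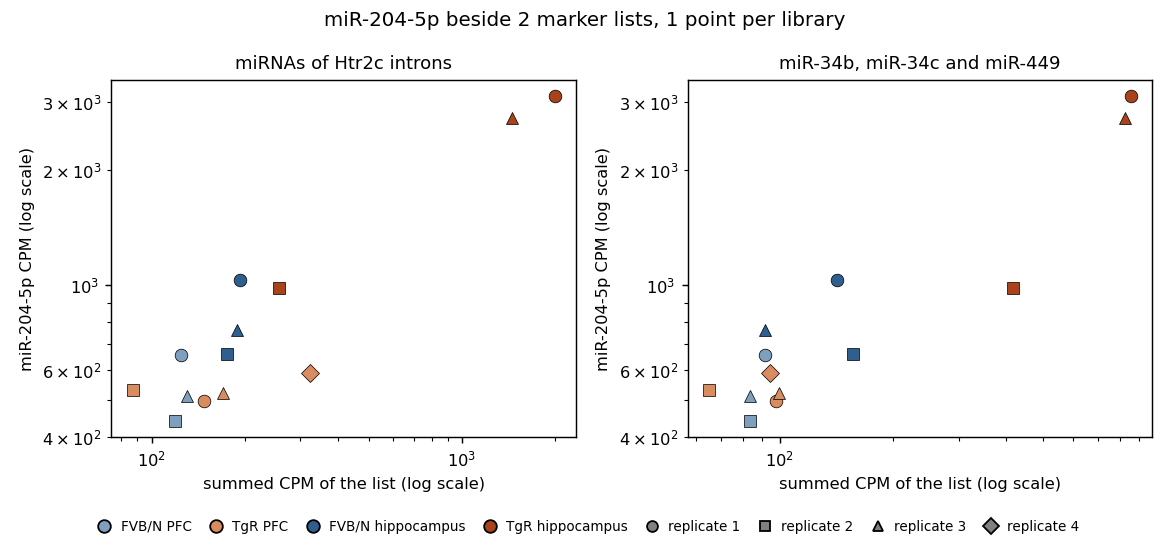
miR-204-5p in CPM against the summed CPM of the miRNAs of Htr2c introns (left) and of miR-34b, miR-34c and miR-449 (right), both axes logarithmic, 1 point per library. TgR hippocampus replicates 1 and 3 are at the upper right in both panels, and replicate 2, at 984 CPM of miR-204-5p, lies next to the FVB/N hippocampal libraries on the left but apart from them on the right.

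In the hippocampal comparison of genotypes, 6 of 7 tested miRNAs of the Htr2c list were above 0, with a median log2 value of 1.39, and 4 had groups that did not overlap upward, as did 11.4% of all 726 pairs. Of the ciliary list 4 of 5 were above 0, with a median of 2.42, and 4 did not overlap upward, set beside the same 11.4%. For the red blood cell list (miR-144, miR-451a and miR-486), 0 of 7 were above 0, with a median of −0.86, and 6 did not overlap downward, as did 13.2% of all 726 pairs. Its sum was 591 to 836 CPM in TgR hippocampus and 1326 to 1491 in FVB/N hippocampus. The sensory and retinal list (miR-182, miR-183, miR-96 and miR-184) had 1 of 4 above 0, a median of −1.57 and 3 without overlap downward, with sums of 21.8 to 58.1 CPM in TgR and 43.4 to 103 in FVB/N hippocampus. The oligodendrocyte list summed to 1833 to 2909 CPM in TgR and 1436 to 1967 in FVB/N hippocampus, with 4 of 5 above 0, a median of 0.41 and 2 without overlap upward. The ranges of the sensory and oligodendrocyte sums overlapped between the hippocampal genotypes, and so did those of the remaining lists. The vascular list had 10703 to 12231 CPM in TgR and 11686 to 18381 in FVB/N mice, the mesenchymal and meningeal list 137 to 230 and 159 to 221 CPM, and the neuronal list 162646 to 187881 and 165604 to 199223 CPM. Of the vascular list 1 of 6 did not overlap upward and 1 downward, and of the mesenchymal and meningeal list 1 of 5 upward, set beside the same 11.4% and 13.2%. The part of these cell types in the miR-204 levels was not tested.

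In the PFC, where the miR-204 arms did not pass the test between genotypes, 0 of 45 tested miRNAs of the 8 lists passed edgeR, 4 had an unadjusted p under 0.05 and 0 passed DESeq2. Among all 730 pairs these shares were 0.137% adjusted and 2.6% unadjusted. All 7 tested miRNAs of the Htr2c list were above 0 there, with a median of 0.48 and 0 without overlap, and so were all 6 of the mesenchymal and meningeal list, with a median of 0.50 and 1 without overlap upward. The sensory list had 1 of 4 above 0, a median of −0.53 and 1 without overlap downward. Such separation was found upward in 3.7% and downward in 1.37% of all 730 pairs. The medians of the remaining lists were −0.064 to 0.02. In FVB/N mice, 5 of 45 passed edgeR between hippocampus and PFC and 7 passed DESeq2. Among all pairs, 24 of 718 (3.34%) passed edgeR and 36 passed DESeq2. The DESeq2 fit took every pair with counts in these groups, and by default it can leave low-count pairs without an adjusted p. Its 36 are therefore not counted out of the 718. In the quasi-likelihood test of edgeR, with p adjusted after Benjamini and Hochberg, miR-1298-5p of the Htr2c list (log2 difference 0.81, adjusted p = 0.0499), miR-449a-5p of the ciliary list (1.79, adjusted p = 0.0435), and miR-219a-2-3p (1.54, adjusted p = 0.00618) and miR-338-5p (0.99, adjusted p = 0.0224) of the oligodendrocyte list were higher in hippocampus. miR-184-3p was lower there, with a log2 difference of −2.96 (adjusted p = 0.000209 in edgeR). miR-449a-5p was named after its value was seen. The lists had 1 of 7 (Htr2c), 1 of 5 (ciliary), 2 of 5 (oligodendrocyte) and 1 of 4 (sensory) members past the test, set beside 2.09% of all pairs that were higher and 1.25% that were lower in hippocampus. Of the sensory list 3 of 4 were above 0, with a median of 0.67, so its other members had the opposite sign to miR-184-3p. Above 0 were 5 of 7 (Htr2c, median 0.30), 4 of 5 (ciliary, median 0.38) and 5 of 5 (oligodendrocyte, median 0.99).

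The miRNAs with the profile most like that of miR-204-5p were sought among 748 pairs outside the family, by the root mean square difference of log2 CPM over the 13 libraries after each miRNA was centered on its own mean. miR-204-3p, from the same precursor, was at 0.33, and 0 of the 748 pairs were nearer. The 5 nearest others were miR-34c-3p at 0.39, miR-34b-3p at 0.49, miR-34c-5p at 0.54, miR-338-3p at 0.56 and miR-224-5p at 0.57, where the median of all pairs was 0.94 and the spread of miR-204-5p around its own mean was 0.87. The first 3 belong to the ciliary list and the fourth to the oligodendrocyte list. The first and the fifth were at low levels, with group means of 2.16 to 11.6 CPM for miR-34c-3p and 0.644 to 1.39 CPM for miR-224-5p. miR-211-5p, despite its shared seed, was at 1.14, with 662 of 748 pairs nearer to miR-204-5p. As the groups in these profiles include the hippocampal values that chose the family, the distances are a description.

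**Figure D5:**
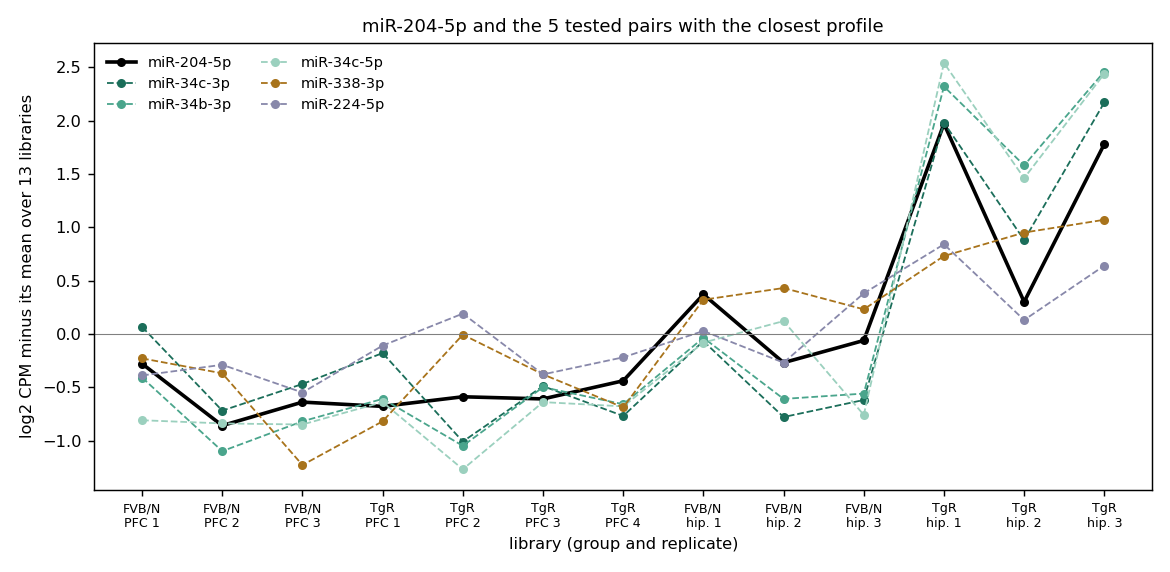
Log2 CPM minus its mean over the 13 libraries for miR-204-5p (solid black) and the 5 nearest pairs (dashed), by library. The lines only join the points of 1 miRNA. miR-34c-3p, miR-34b-3p and miR-34c-5p have their 3 highest values in the TgR hippocampal libraries with replicate 2 below the other 2, miR-204-5p has its 2 highest there in replicates 1 and 3, and miR-338-3p and miR-224-5p vary less.

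For miR-211-5p the nearest 5 were miR-216b-5p at 0.60, miR-185-5p at 0.63, miR-466h-3p at 0.63, miR-3086-5p at 0.64 and miR-31-5p at 0.65. These were little below the spread of miR-211-5p around its own mean, 0.76, and the median of all pairs, 0.84, so that no miRNA followed it closely. 3 of the 5 were themselves at low levels, with group means of 0.531 to 3.04 CPM.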

How the data were processed

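Small RNA libraries (NEBNext kit) were checked with FastQC and aligned to miRBase with miRExpress by the authors, who deposited whole read counts per hairpin and mature miRNA without normalization. Pairs not listed in a library were taken as 0. The titles gave genotype, region and replicate number. The members and the marker lists were chosen with earlier results of these data known. Misassignment between near-identical strands was not tested.

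Each comparison was fitted on its own groups and on the whole table with edgeR 4.0.16 in R 4.3.3 (TMM, filterByExpr with a minimum of 10 counts, quasi-likelihood test, Benjamini-Hochberg adjusted p under 0.05). Ratios were compared with exact permutation tests in scipy 1.17.1. Depth was 8769851 to 18385985 counts, so the spread between mice, of which there were 3 to 4 in a group, limits precision. For miR-211-5p low counts limit it as well, beside a spread in FVB/N PFC beyond counting error. If samples of a group were not separate animals, p-values measure technical spread. The scripts were tested on simulated data. Named miRNAs are the members, the 5 pairs nearest to each 5p arm and up to 3 leading miRNAs of a list. Alternatives were DESeq2 1.42.0, its size factors, library size, no filter, a single entry per mature miRNA, all libraries in 1 fit, a replicate block and leaving out each library. Positions come from GENCODE M21 and RefSeq, in which 1165 of 1384 mature names were found.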

Additional observations from a re-analysis of the deposited data

Results flagged for a closer look

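miR-211-5p had differences of opposite sign in the 2 regions and in the 2 genotypes. The mean CPM of TgR minus FVB/N mice was 0.405 in hippocampus and −2.24 in PFC. The mean CPM of hippocampus minus PFC was 0.421 in TgR mice and −2.22 in FVB/N mice. The size of both negative values rests on FVB/N PFC replicate 3. Without it the fitted log2 differences stayed negative, at −0.53 between PFC genotypes and −0.45 between FVB/N regions. The difference between the regions or genotypes was not tested.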

How the results depend on the processing

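Between PFC genotypes, no member passed the test under any alternative, and the small miR-204 values changed sign. miR-204-5p ranged from −0.16 to 0.16 with each library left out. miR-204-3p was −0.00098 in DESeq2, −0.00038 with its size factors, −0.033 with library size only, −0.013 without the filter, −0.0016 with a single entry per mature miRNA and −0.22 with the replicate block, and −0.18 to 0.19 with each library left out. Its ratio to miR-204-5p differed by 0.17 from summed counts, and by −0.261 to 0.232 with each library left out. miR-211-5p ranged from −2.22 to −0.53, and its ratio to miR-204-5p from −0.631 to −0.0523, both nearest to 0 without FVB/N PFC replicate 3.

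Between regions in FVB/N mice, miR-204-5p was 0.44 to 0.81 and miR-204-3p 0.35 to 0.62 with each library left out, and neither passed. miR-211-5p was −2.18 to −0.45, and it passed only without the filter (−1.77, edgeR adjusted p = 0.00022), where the lowest counts enter the fit. Over its alternatives the adjusted p was 0.00022 to 0.56. The 24 pairs past the threshold became 56 without the filter, 40 with all 13 libraries in 1 fit and 4 to 51 with 1 library left out: 4 without FVB/N PFC replicate 2, 51 without FVB/N PFC replicate 3, and 14, 9 and 12 without hippocampal replicates 1, 2 and 3. The cause was not tested.

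For the contrasts given as descriptions, over all alternatives, miR-204-5p was 1.14 to 1.86 between hippocampal genotypes and 1.83 to 2.45 between TgR regions. miR-204-3p was 1.00 to 1.70 and 1.48 to 2.07, and miR-211-5p 0.33 to 0.83 and 0.45 to 0.69. Scaling by library size only moved the median of all pairs between TgR regions from 0.029 to 0.13, with miR-204-5p then at 2.21, miR-204-3p at 1.88 and miR-211-5p at 0.68.

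Whether replicate numbers mark shared mice is not known, and for FVB/N PFC the deposited names number the libraries differently from the titles used here. Same-numbered deviations correlated at −0.224, 0.415 and 0.0502 between PFC genotypes, −0.0696, 0.127 and −0.0359 between hippocampal genotypes, 0.128, 0.0499 and 0.185 between FVB/N regions, and 0.114, 0.41 and −0.133 between TgR regions. Every comparison had at least 1 correlation under 0.1, so the numbers were not taken as pairs, and in no comparison did every library correlate best with its own number. With the replicate block, miR-211-5p was −1.45 between PFC genotypes, and the counts past the threshold were 1 and 25. Depth also limits miR-211-5p, which had 10 to 29 counts in 12 of the 13 libraries, beside its spread between the FVB/N PFC libraries.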
